A study of Caenorhabditis elegans with 2 samples.

Results

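The genes described here encode the subunits of the C. elegans proteasome and the enzymes that activate and conjugate ubiquitin and its relatives. They were taken by name, as all protein-coding genes of the WBcel235 annotation called pas-, pbs-, rpn-, rpt-, uba- or ubc- followed by a digit, and numbered 57 of 19973. Binding of CEBP-1, a C/EBP-type bZIP transcription factor, was mapped by chromatin immunoprecipitation and sequencing (ChIP-seq) with an antibody against GFP. The animals were whole young adults of strain RW12290, whose endogenous cebp-1 gene on X carries the CRISPR insertion st12290[cebp-1::TY1::EGFP::3xFLAG], collected at 62 hours after synchronisation by bleaching and larval starvation. There was 1 group of 2 biological replicates, so no comparison between conditions was possible and the results are counts and values without p-values. Both replicates carry the same tagged allele, and the untagged strain and the control library were not analysed here. In whole animals, strong binding in few cells and weak binding in many cannot be told apart.

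The proteasome is the protease complex that degrades ubiquitinated proteins. Its 20S core is a barrel of alpha rings, encoded by the pas genes, and beta rings, encoded by the pbs genes, of which some beta subunits cut peptide bonds. The 19S regulatory particle recognises and unfolds substrates; its base holds the ATPases encoded by the rpt genes, and the rpn genes encode its other subunits, among them scaffolds, ubiquitin receptors and a deubiquitinase. Ubiquitin reaches a substrate through an E1 enzyme that activates it, an E2 enzyme that carries it and an E3 ligase that chooses the target. The uba genes encode E1 enzymes and the ubc genes E2 enzymes, and some of them serve the ubiquitin-like proteins SUMO, NEDD8 or UFM1. In C. elegans the transcription factor SKN-1 is known to raise proteasome genes when the proteasome is impaired.

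A gene was called bound when a peak summit lay from 1000 bp upstream to 200 bp downstream of one of its annotated 5′ ends. The main list was the series' conservative list of 1546 peaks, which the authors obtained by ranking peaks on their irreproducible discovery rate (IDR), the expected share of peaks at least as strong that fail to repeat. The sequences around the summits of 4 bound members are shown because they differ in whether they hold TTGCGAAA. This word is of C/EBP type and was found in 28.6% of the conservative peaks. It was taken as the 8-base word leading these same peaks, so that share is not independent support for the word. Each sequence runs 5′ to 3′ on the strand of its gene in assembly ce11 (the RefSeq WBcel235 genome sequence). It covers 40 bases either side of the summit of the series peak. In the uba-1 and ubc-9 sequences capitals mark TTGCGAAA or its reverse complement TTTCGCAA, and in the ubc-6 sequence they mark the word GGGGGAT.
ubc-9, chrIV:4650748-4650828, plus strand: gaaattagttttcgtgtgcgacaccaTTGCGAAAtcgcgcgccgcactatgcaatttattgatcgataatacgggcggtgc
uba-1 upstream peak, chrIV:9995091-9995171, minus strand: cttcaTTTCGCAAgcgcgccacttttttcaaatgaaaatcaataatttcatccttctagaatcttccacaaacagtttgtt
uba-1 internal peak, chrIV:9993572-9993652, minus strand: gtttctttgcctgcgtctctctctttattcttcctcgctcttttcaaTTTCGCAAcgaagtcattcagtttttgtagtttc
ubc-6, chrII:7478887-7478967, plus strand: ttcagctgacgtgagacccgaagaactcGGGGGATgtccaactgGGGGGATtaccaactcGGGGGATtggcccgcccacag
rpn-3, chrIII:8447081-8447161, plus strand: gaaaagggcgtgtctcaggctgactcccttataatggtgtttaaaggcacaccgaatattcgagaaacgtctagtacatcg
The rpn-3 and ubc-6 sequences hold no copy of TTGCGAAA.

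Of the 57 genes, 6 were bound in the conservative list (10.5%), against 5.06% of all 19973 protein-coding genes. They were rpn-3, uba-1, ubc-3, ubc-6, ubc-9 and ubc-25. The list of replicate 1 gave 7 members (12.3%), against 5.37% of all genes, and that of replicate 2 gave 4 (7.02%), against 2.91%. Only rpn-3, ubc-6 and ubc-9 were bound in the conservative list and in both replicate lists (5.26%), against 2.57% of all genes. In the longer optimal list, 8 members were bound (14%), against 6.31% of all genes. Across the 4 lists 9 members were bound at least once, and 48 in none. The share of all genes bound in at least 1 list was not computed, so these 2 counts have no background to be read against. The differences between the members' shares and those of all genes were not tested.

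Of the 33 proteasome subunit genes, 1 was bound in the conservative list (3.03%), and of the 24 E1 and E2 enzyme genes 5 were (20.8%), beside 5.06% of all genes. The optimal list gave 3 subunit genes and 5 enzyme genes beside 6.31% of all genes, the list of replicate 1 gave 3 and 4 beside 5.37%, and that of replicate 2 gave 1 and 3 beside 2.91%. With 1 to 3 genes in each list, the share of subunit genes lay on either side of that of all genes. For 9 of the 33 subunit genes and 7 of the 24 enzyme genes, the next gene upstream was on the same strand, less than 1000 bp away. The promoter window of such a gene reaches into its neighbour. None of the 20 genes of the 20S core and the 19S ATPases was bound in the conservative list or in either replicate list. The optimal list held 1 of them, pbs-2. With only 20 genes, these counts do not show a share below the 5.06% of all genes. A weak ranked peak was nonetheless usual at the proteasome genes. The ranked series list, which holds 50793 peaks including those below the IDR limit, had a promoter summit at 30 of the 33 subunit genes (90.9%), at 13 of the 24 enzyme genes (54.2%) and at 50.6% of all protein-coding genes. The strongest such peak of each subunit gene had a median signal of 41.3 (11.4 to 123), that of each enzyme gene a median of 53.8 (28.0 to 290), and that of all genes with one a median of 38.0. Among the members with a ranked promoter summit, 6 of 43 were bound (14%), against 10% of all such genes. The signal is the authors' own value for the strength of a peak. How it was scaled is not stated and the depth is unknown, so values are read against others of the same list, and a ratio between the replicates only against that ratio over all conservative peaks.

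**Figure D1:**
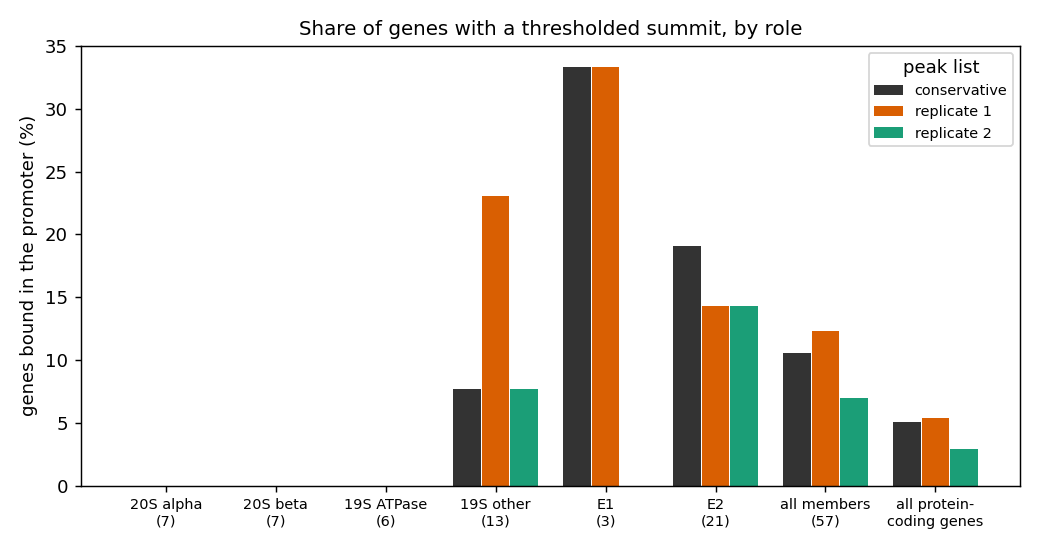
Share of genes (%) with a thresholded summit in the promoter, by role, with the number of genes in parentheses, and for all 19973 protein-coding genes at the right; bars are single shares from the conservative list and from each replicate's list, without error bars. The 20S core and 19S ATPase genes are at 0 in all 3 lists, and the 21 E2 genes stand at 19% in the conservative list.

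Among the proteasome genes, rpn-3 was the bound one. It encodes a scaffold subunit of the 19S lid and lies at III 8447353 to 8449346 on the plus strand. Its peak spanned III 8446969 to 8447272, with the summit 232 bp upstream of the 5′ end and outside any annotated gene. The signal was 123 in the conservative list, where it ranked 689 of 1546, with 57.1 in replicate 1 and 69.4 in replicate 2. Both replicate values passed the IDR limit on their own. The peak sits in a gap of 443 bp between rpn-3 and hsp-110, a chaperone gene of the HSP110 family that runs the other way. The summit was 212 bp upstream of hsp-110, nearer than to rpn-3, so each gene counts as bound and rpn-3 is lost when a summit is given only to the nearest 5′ end.

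A further 3 subunit genes were bound in another list and not in the conservative one. The lid gene rpn-7 had a peak 409 bp upstream of its 5′ end in the list of replicate 1, with a signal of 71.8 there, while the overlapping ranked peak of replicate 2 had 15.4. It was bound in the optimal list too, with a signal of 78.7, at a summit shared with F49C12.9. The lid gene rpn-9 was bound only in the list of replicate 1, 274 bp upstream at a summit shared with T06D8.9, where its signal was 58.4, while the overlapping peak of replicate 2 had 23.7. The ratio of replicate 1 to replicate 2 was 4.66 at rpn-7 and 2.46 at rpn-9. Both lie above the upper decile of 1.93 over the conservative peaks. As both genes passed in replicate 1 and not in replicate 2, high ratios follow largely from how they were picked. In the 20S core, pbs-2 was bound only in the optimal list, with a summit 101 bp downstream of its 5′ end in its own exon and a signal of 68.6. That summit also lies in the promoter of eif-6. The remaining 29 subunit genes, pas-1 to pas-7, pbs-1 and pbs-3 to pbs-7, rpt-1 to rpt-6, and rpn-1, rpn-2, rpn-5, rpn-6.1, rpn-6.2, rpn-8, rpn-10, rpn-11, rpn-12 and rpn-13, were in none of the 4 lists. Among these, rpn-6.1 encodes a lid scaffold, rpn-10 and rpn-13 ubiquitin receptors, and rpn-11 the deubiquitinase of the lid. The paralogue pair rpn-6.1 and rpn-6.2 had strongest ranked series signals of 45.3 and 11.4. In replicate 1 their strongest promoter peaks had 24.4 and 32.9, with summits at other positions than in the series list. In replicate 2 rpn-6.1 had 24.5 and rpn-6.2 had no ranked promoter peak.

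**Figure D2:**
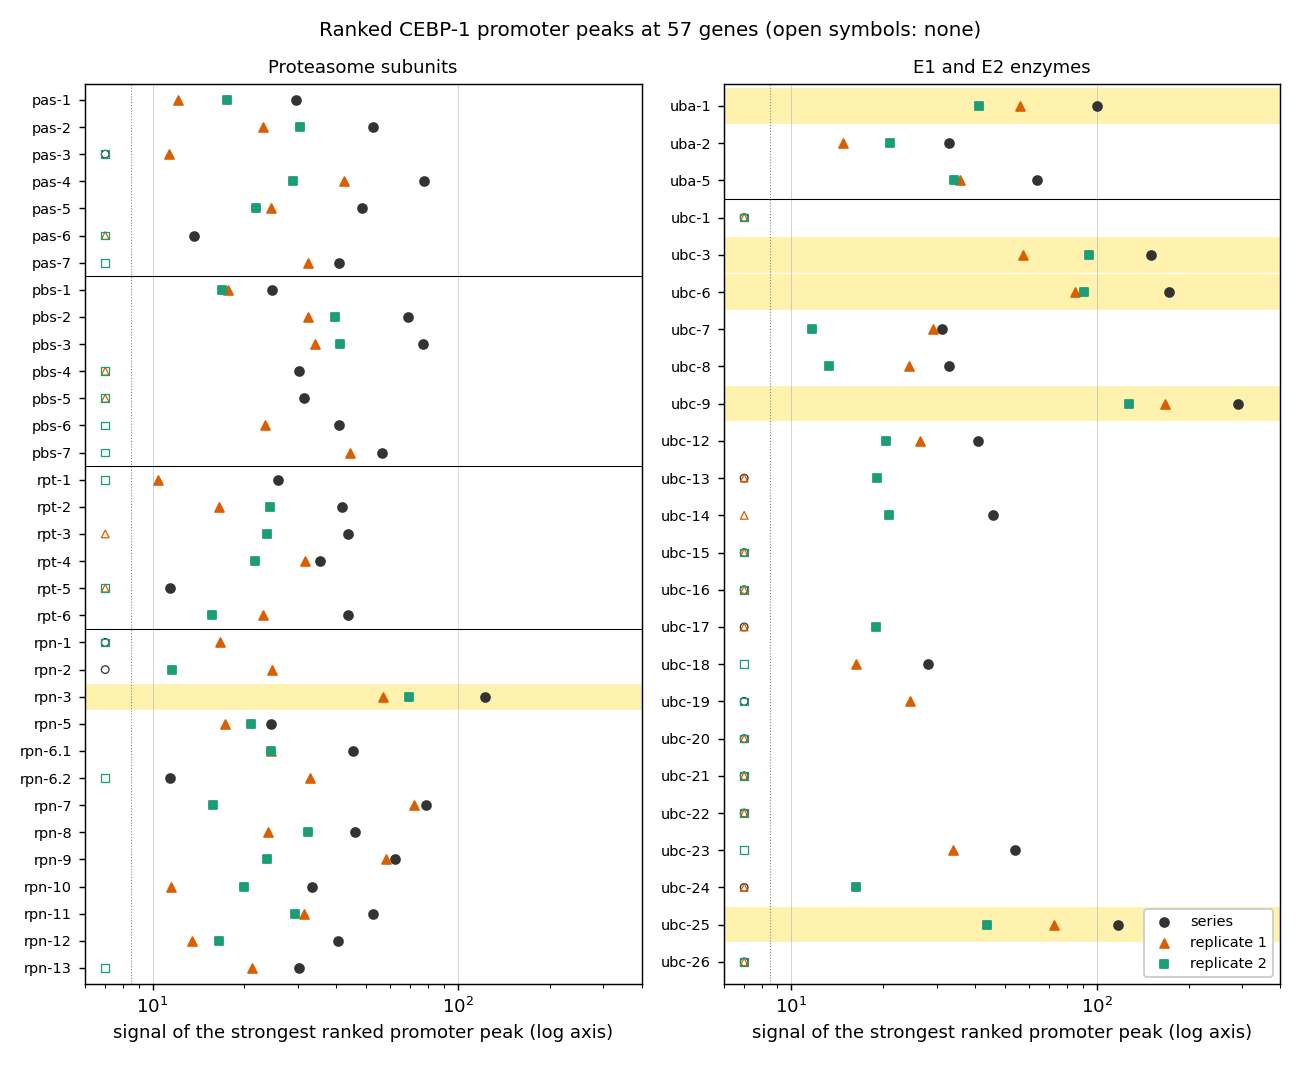
Signal of the strongest ranked promoter peak (log axis) at each of the 57 genes in the series list (circles) and in the ranked lists of replicate 1 (triangles) and replicate 2 (squares); open symbols at the left mark genes with no ranked promoter peak, and shading marks the 6 genes bound in the conservative list. The shaded genes have series signals from 99.9 to 290, and the unshaded genes with a peak have 11.4 to 78.7.

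The E1 genes came next. The gene uba-1, whose product is the E1 enzyme of ubiquitin itself, lies at IV 9989671 to 9994945 on the minus strand and had 4 annotated 5′ ends. A pair of conservative peaks lay at these ends. The upstream peak, at IV 9994979 to 9995282, had its summit 186 bp upstream of the nearest 5′ end and outside any annotated gene, and its signal was 99.9 (replicate 1 gave 55.9 and replicate 2 gave 41.2). The internal peak, at IV 9993460 to 9993763, had its summit in an intron of uba-1, 263 bp upstream of an internal 5′ end, and its signal was 92.6 (replicate 1 gave 55.6 and replicate 2 gave 37.5). Both passed in replicate 1 and neither passed in replicate 2, where their IDR was 0.0213 and 0.234. No other gene's promoter held either summit. The other E1 genes were not bound in any list: uba-2, which encodes a subunit of the SUMO E1, had a strongest ranked signal of 32.7, and uba-5, which encodes the E1 of UFM1, had 63.9.

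Of the 21 E2 genes, 4 were bound in the conservative list. The strongest was ubc-9, which encodes the E2 of SUMO and lies at IV 4651044 to 4652447 on the plus strand. Its peak at IV 4650701 to 4650858 had a signal of 290 and ranked 168 of 1546, with 168 in replicate 1 and 128 in replicate 2. Its width was 158 bp, against a median of 304 bp in the list, and the summit lay 256 bp upstream outside any annotated gene. It was the only member peak above the upper quartile of the list's signals, which was 174. Both replicates held it in their thresholded lists.

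The gene ubc-6 encodes a relative of the yeast Ubc6, an E2 of the endoplasmic reticulum membrane, and lies at II 7479187 to 7480713 on the plus strand. Its peak at II 7478775 to 7479078 had a signal of 172, where replicate 1 gave 84.9 and replicate 2 gave 90.7, with the summit 260 bp upstream. That summit also lay 390 bp upstream of aka-1, an A-kinase anchor protein gene on the other strand, across a gap of 649 bp. The optimal list held a further overlapping peak at ubc-6, with its summit 58 bp upstream and a signal of 30.

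The other bound E2 genes passed in 1 replicate each. The gene ubc-3, the homologue of the cell cycle E2 Cdc34, lies at I 1698349 to 1701128 on the plus strand and had a peak at I 1697916 to 1698219 with its summit 281 bp upstream. Its signal was 151 in the conservative list, with 57.5 in replicate 1 and 94.7 in replicate 2, and the IDR in replicate 1 was 0.0134, just outside the limit of 0.01. The gene ubc-25, an E2 of the UBE2Q type, lies at I 10562970 to 10564903 on the plus strand and had a peak at I 10562587 to 10562890 with its summit 231 bp upstream. Its signal was 117, with 72.6 in replicate 1 and 43.8 in replicate 2, where the IDR was 0.0364. So ubc-3 was missing from the list of replicate 1 and ubc-25 from that of replicate 2, and no other gene shared their summits.

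The 17 E2 genes that were not bound include those of other known pathways: ubc-12 of NEDD8, ubc-13 of a chain type used in signalling and DNA repair, ubc-1, the homologue of yeast Rad6, and ubc-7 and ubc-14 of endoplasmic reticulum degradation. The strongest ranked series signals were 40.9 at ubc-12, 31.1 at ubc-7 and 45.8 at ubc-14, and ubc-1 and ubc-13 had no ranked series summit in the promoter. In all, 14 members had none: pas-3, rpn-1, rpn-2, ubc-1, ubc-13, ubc-15, ubc-16, ubc-17, ubc-19, ubc-20, ubc-21, ubc-22, ubc-24 and ubc-26. Of these, 11 are E2 genes. The genes ubc-21 and ubc-22 run away from each other across a gap of 462 bp on X, so they share upstream sequence and are not separate observations. The unbound ubc-8, ubc-18 and ubc-23 had ranked series signals of 32.9, 28.0 and 53.8.

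The member summits lay at similar positions and varied in strength. The 7 member summits lay from 281 to 186 bp upstream of the nearest 5′ end of the member, with a median of 256 bp, and none lay downstream. The 879 conservative promoter summits of all genes had a median of 230 bp upstream, with quartiles at 463 and 99 bp upstream. All 7 member summits fell between those quartiles. The replicates placed them from 285 to 160 bp upstream. In signal they ran from rank 168 to rank 1096 of 1546, and 5 of 7 were above the list's median of 115. Their median percentile in the list was 55.5. The signal was larger in replicate 1 than in replicate 2 at 4 of the 7 member peaks, against 76.7% of the 1525 conservative peaks that have a ranked peak in both replicates. The exceptions were rpn-3, ubc-3 and ubc-6, with ratios of 0.823, 0.607 and 0.936, where the median over all conservative peaks was 1.27.

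**Figure D3:**
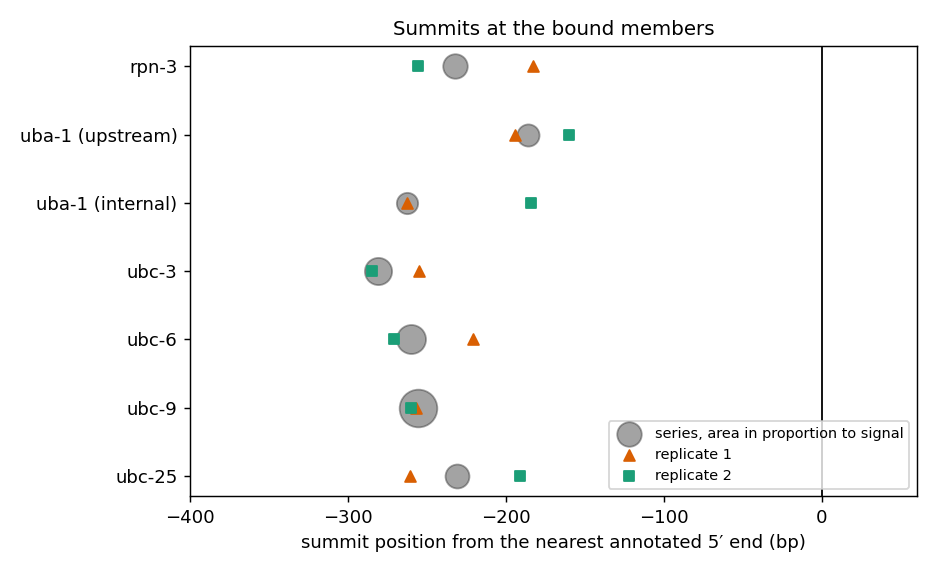
Summit position (bp) from the nearest annotated 5′ end at the 7 conservative peaks of bound members, in the series list (grey circles, area in proportion to signal), in replicate 1 (triangles) and in replicate 2 (squares). Every series summit lies from 281 to 186 bp upstream.

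**Figure D4:**
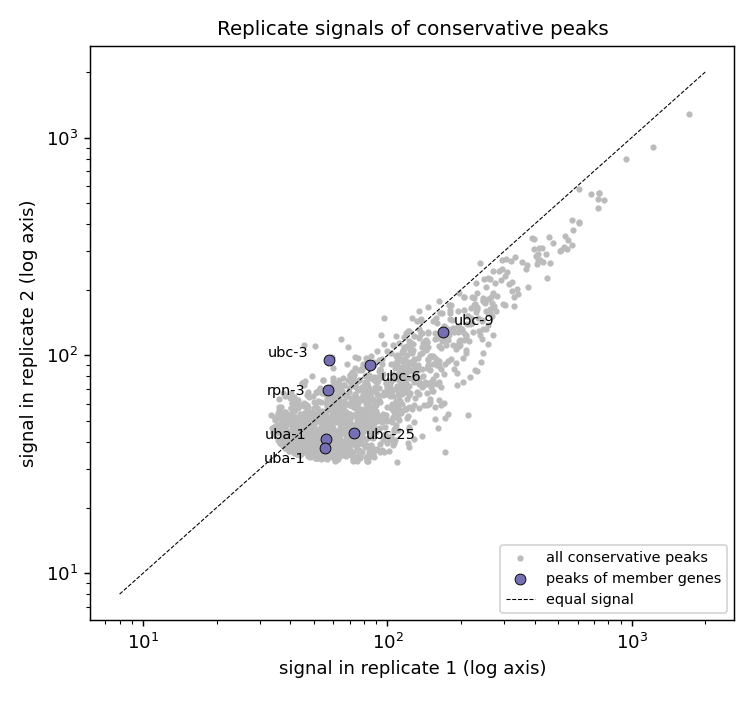
Signal in replicate 2 against signal in replicate 1 (both log axes) for the 1525 conservative peaks with a ranked peak in each replicate (grey) and the 7 peaks of bound members (purple); the dashed line marks equal values. The peaks of ubc-3, rpn-3 and ubc-6 lie above the line and the other 4 below it.

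The unbound members nearest to the limit were 4 genes of the 20S core and 1 E1 gene. The lowest deposited score in the conservative list was 830 of 1000, and the nearest member peak inside it was the internal uba-1 peak at 983 (IDR 0.00428). Nearest outside was the 20S gene pbs-3, with a score of 804 (IDR 0.0115) and a signal of 77.0. Its summit was 124 bp upstream, past the gap of 22 bp to ulp-2, the next gene upstream, which lies on the same strand. The overlapping peaks gave 34.0 (replicate 1) and 41.2 (replicate 2). After pbs-3 came pbs-2 with 739, uba-5 with 710, and the alpha ring genes pas-4 with 576 and pas-2 with 308. None of these 5 passed in either replicate list. The strongest ranked series peaks of the 37 unbound members with one had a median score of 79, so most were far from the limit. The sequence at pbs-3 is shown as the one nearest the limit, with capitals marking the looser core TTGCNNAA in reverse complement.
pbs-3, chrII:4955511-4955591, minus strand: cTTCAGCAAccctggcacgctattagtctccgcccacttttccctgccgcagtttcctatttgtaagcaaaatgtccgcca

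Distance to the nearest conservative summit was measured for every member. The 5′ ends of the 57 genes lay a median of 10931 bp from one, against 28182 bp for all protein-coding genes, and 52.6% of members were farther than 10 kb, against 75.7% of all genes. By role the medians were 57555 bp for pas genes, 26884 bp for pbs genes, 7080 bp for rpt genes, 4684 bp for rpn genes, 4720 bp for uba genes and 13990 bp for ubc genes. No conservative summit lay inside the body of a member outside its promoter window. Beyond the 6 bound genes, 7 members had a summit within 2000 bp, of which pas-5, pbs-1, rpt-2, rpt-6 and ubc-8 had it upstream, at 1133, 1470, 1413, 1837 and 1436 bp. The gene pas-5 lies 1446 bp downstream of ubc-25 on the same strand.

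The word TTGCGAAA, on either strand within 100 bp of the summit, was in 3 of the 7 member peaks, the pair at uba-1 and the one at ubc-9. It was in 28.6% of all 1546 conservative peaks. The centres lay 10.5 bp from the summit at ubc-9 and at the internal uba-1 peak, and 31.5 bp away at the upstream uba-1 peak. The looser core TTGCNNAA, which includes TTGCGAAA, was in 4 member peaks (39.7% of all peaks), the fourth being ubc-6. Its centre at ubc-6 lay farther out, 68.5 bp from the summit and outside the sequence shown. In the promoter windows, TTGCGAAA was found at 7 of 57 members (12.3%) against 10.1% of all protein-coding genes. It occurred at uba-1 and ubc-9, which were bound in the conservative list, and at pas-3, pas-6, pas-7, rpn-7 and ubc-23, which were not. Of the latter, rpn-7 was bound in the optimal list and in that of replicate 1, and its peak held the word in each.

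Other words were searched in the same way on both strands. The heat shock unit GAANNTTC was in 4 of 7 member peaks, at rpn-3, ubc-6, ubc-9 and the upstream uba-1 peak, and in 13.2% of all conservative peaks. At ubc-9 its centre lay 96.5 bp from the summit, near the edge of the window. The window of the ubc-9 peak of replicate 1 did not hold it. In promoter windows GAANNTTC was in 77.2% of members and 57.2% of all genes. These differences were not tested. The E-box CACGTG (8.21% of all peaks), the GATA site TGATAA (17.2%), the TATA box TATAAA (15.6%), the AP-1 site TGACTCA (4.85%), the SKN-1 site (12.8%) and TTGCATCA, a composite of C/EBP and ATF sites (1.81%), were in none of the 7 member peaks. The SKN-1 site was taken as any 1 of ATGTCAT and ATATCAT, and of TTGTCAT and TTATCAT, and was in 64.9% of member promoter windows and 63.3% of all. The word GGGGGAT was picked after the ubc-6 sequence had been seen. It occurs 3 times in the 81 bases shown, and at least 3 times in 7 of the 1546 summit windows (0.453%). The member windows had a median GC content of 43.8% (34.3 to 54.2%), against 42.3% for all conservative windows.

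Genes around this pathway were taken from a list of 111 further genes. Of these, 18 were bound in the conservative list (16.2%), against 5.06% of all genes. In both replicate lists too, 12 of them were bound, beside 2.57% of all genes. The list of 111 genes was chosen with earlier results of these data known, so these shares do not measure enrichment of the pathway. The list holds ubiquitin and ubiquitin-like proteins (1 of 7 bound), E1 and E2 enzymes outside the naming rule, cullin-RING ligase genes (1 of 21) and other E3 ligases (4 of 24). It also holds deubiquitinases grouped with the ulp genes, which encode SUMO proteases (6 of 19, among them ulp-4), and the COP9 signalosome (0 of 6). The remaining classes are CDC-48 and shuttle factors (4 of 15) and regulators of the proteasome (1 of 8). Each count was small, and differences between these classes were not tested.

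The strongest of them was cdc-48.1, which encodes a p97 segregase that unfolds ubiquitinated proteins, at 353 (194 in replicate 1 and 159 in replicate 2). Among deubiquitinases, math-33, the USP7 homologue, had 329 (210 in replicate 1 and 121 in replicate 2), usp-4 had 300 (170 in replicate 1 and 118 in replicate 2), otub-2 had 240 (138 in replicate 1 and 103 in replicate 2) and usp-48 had 144 (75.2 in replicate 1 and 61.9 in replicate 2). These 5 were named as being among the strongest bound genes of the wider list. That each series signal exceeded the conservative list's median of 115 follows largely from this choice. The bound deubiquitinase gene usp-14 had 106 and the SUMO protease gene ulp-4 had 83.5, both below that median. The math-33 summit was shared with erfa-3 and the usp-48 summit with F30A10.9.

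Among the ligases, the U-box gene prp-19 had 262 (134 in replicate 1 and 121 in replicate 2), at a summit shared with K10D2.5 and emb-1, and the HECT gene eel-1 had 258 (126 in replicate 1 and 148 in replicate 2). The polyubiquitin gene ubq-1 had 233 (146 in replicate 1 and 89.8 in replicate 2), and skn-1 had 209 (119 in replicate 1 and 83.1 in replicate 2). The co-chaperone gene bag-1 had 138 (63.0 in replicate 1 and 74.4 in replicate 2), and the ubiquilin gene ubql-1 had 135 (85.2 in replicate 1 and 66.0 in replicate 2). All of these passed in both replicate lists. The scaffold gene cul-1 had 129 (83.7 in replicate 1 and 36.1 in replicate 2) and passed in replicate 1 only. Among the other bound genes, wwp-1, usp-14, ubr-5, ubxn-3 and ulp-4 had signals from 83.5 to 108, of which the summits of usp-14 and ubr-5 were shared with vnut-1 and F29D10.1. TTGCGAAA lay within 100 bp of the summit at 7 of the 18, beside 28.6% of all conservative peaks, and the difference was not tested. The 7 were ubq-1, cul-1, usp-4, usp-48, math-33, ubql-1 and skn-1.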

How the data were processed

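Peak lists of 2 biological replicates were used, with fragments of 200 to 800 bp per the labels. Per the deposited notes, the authors called peaks on ce11 against a control alignment and ranked them by IDR. Which peak caller they ran is not given in the sources used here. The deposited score runs up to 1000, with 830 as the lowest in each thresholded list. The signal is the deposited value per peak, of unstated scaling. Values of −log10 global IDR, also deposited, came from the matched ranked lists, and no thresholded peak exceeded 0.01. Depth is unknown, because the files used here hold no read counts.

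Coordinates of ce11 were read on WBcel235, the same assembly, whose chromosomes held all 176355 ranked peaks, with Ensembl release 115 genes and the RefSeq genome sequence. A replicate's signal at a peak is that of the strongest peak in its ranked list that overlaps by at least 1 bp. The members and lists were chosen with earlier results of these data known. Every bound member was named, with the members bound in another list, the 5 unbound members nearest the limit, the 12 strongest bound genes of the wider list and the genes sharing a summit. The values of 1 gene of the wider list are not reported here. Alternatives covered the list, the IDR limit, promoter size, assignment and word window. The calls were tested on simulated data. Python 3.11.15, numpy 2.4.6, pandas 2.3.3 and matplotlib 3.10.9 were used.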

Additional observations from a re-analysis of the deposited data

How the results depend on the processing

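The members bound in the conservative list stayed within 1.5 times their count of 6 under each alternative except promoters of 2000 bp upstream, which gave 11 of 57, with pas-5, pbs-1, rpt-2, rpt-6 and ubc-8 added, while the share of all genes went to 6.65%, against 5.06% with the main settings. Each replicate's own list gave 4 to 7. Limiting the global IDR to 0.001 left out uba-1 and ubc-25.

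The 1 bound proteasome gene of 33 became 3 in the optimal list (6.31% of all genes), 5 with promoters of 2000 bp upstream (6.65%), 2 when any base of a peak counted (pas-5 added; 5.4%) and 0 when each summit went only to the nearest 5′ end (4.01%). Without replicate 1 or replicate 2 it was 1 to 3. The 5 bound enzyme genes of 24 became 3 with the IDR limited to 0.001 (3.11% of all genes) and 3 to 4 without a replicate. The 18 bound genes of the wider list became 9 with the promoter cut to 500 bp before and 100 bp after the 5′ end, which left 3.72% of all genes bound.

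The 3 members bound in the conservative and both replicate lists (2.57% of all genes) ranged from 2 to 4. They were 2 when each summit went only to the nearest 5′ end (1.95% of all genes). With promoters of 2000 bp upstream they were 4 (3.48%). The member peaks with TTGCGAAA numbered 3 with windows of 50 and 150 bp, 4 of 10 in the optimal list and 1 to 4 without a replicate, 1 of 4 in the list of replicate 2. The median percentile of 55.5 ranged from 54.7 to 61.9. No paired analysis was possible because there was 1 group.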
